A study of Homo sapiens with 6 samples.

Results

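Metallothioneins are small cysteine-rich proteins that bind zinc and copper through their thiol groups, and 10 of their genes were followed here in A673 cells, a line derived from Ewing sarcoma, with and without expression of the propeptide of lysyl oxidase. The genes were MT1A, MT1B, MT1E, MT1F, MT1G, MT1H, MT1L, MT1M, MT1X and MT2A, and every array probe whose transcript accession belonged to one of them was kept separately. All 10 genes had a probe, out of 20503 named genes on the array, and together they had 13 probes: 3 genes (MT1E, MT1H and MT1X) had 2 probes each and 7 genes had 1. The family was picked from this same contrast, with its values known, so the values of its members are given as a description and without a test.

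Gene expression was measured on 6 one-colour (Cy3) Agilent SurePrint G3 arrays of total RNA, 3 from A673/TR/empty cells (control) and 3 from A673/TR/LOX-PP cells. TR stands for the tetracycline repressor, which both lines carry and which makes a cDNA behind its operator inducible by doxycycline. The cDNA of the lysyl oxidase propeptide (LOX-PP) was delivered to A673/TR/LOX-PP in an inducible lentiviral vector, and A673/TR/empty holds the vector with no insert. Doxycycline was applied to the LOX-PP cultures over 72 h, at 1 µM according to the labels, whereas the study's methods give doses per ml for its other experiments. The labels state this treatment for the control samples too, while the methods tie it to the LOX-PP cells, and it is not known if the controls were treated. The lines were stably selected, elsewhere in the study as clones and as polyclonal populations, and the sources do not say which was arrayed, so differences between clones and differences from LOX-PP cannot be told apart. The 3 replicates of a group came from separate experiments.

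Each array held 58717 gene spots for 50599 probes, of which 28174 were named, and saturation was not reached by any of them. The share of spots that exceeded background clearly was 56.9% to 74.8% in the controls and 59.3% to 74.1% in the LOX-PP arrays, and negative control spots had a net signal that ranged from 133 to 408 and from 64.4 to 575, respectively. Replicate 1 of LOX-PP was on another slide and scan than the other 5 arrays. The tested LOX probe gave log2 signals of -0.09, 0.36 and 0.11 on control arrays, against -0.12, -0.68 and -1.29 on LOX-PP arrays. It showed no rise where the propeptide was to be induced (relative difference -0.95 ± 0.33 SE, adjusted p = 0.217 by limma). The position of this probe relative to the propeptide cDNA is not known, so it cannot check the labels, on which the directions below rest. Elsewhere, the study detected induced LOX-PP mRNA by RT-PCR and the secreted propeptide in medium of A673/TR/LOX-PP cells. All 8 Ewing sarcoma markers (CD99, NKX2-2, NR0B1 and others) were well above background on every array and none passed the test. Their summed level was 162 to 183 times the 75th percentile on the control arrays and 192 to 229 times on the LOX-PP arrays. Of 8 fibroblast markers, 7 were tested and 5 were well above background on every array. POSTN and LUM were called lower, beside 3.37% of named genes. Of the 7, 6 lay below the median of all probes, where 56.5% of named genes did, and their median relative difference was -0.80. Their summed level was 48.4 to 50.9 times the 75th percentile on the control arrays and 41.9 to 65.7 times on the LOX-PP arrays. THY1, the brightest of them, had the largest part in this sum, with mean log2 signals of 5.16 and 5.25. The part of these differences in the results on metallothioneins was not tested.

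Metallothioneins buffer intracellular zinc, deliver it to other proteins, and hold toxic metals such as cadmium. The human genes lie side by side on chromosome 16. Zinc activates the transcription factor MTF1, which binds metal response elements in their promoters, and glucocorticoids and oxidative stress are further known inducers. MT2A and the MT1 isoforms are expressed in many tissues, MT3 mainly in brain, and MT4 in stratified epithelia. In the RefSeq gene order the cluster runs MT4, MT3, MT2A, MT1L, MT1E, MT1M, MT1A, MT1B, MT1F, MT1G, MT1H and MT1X, with the pseudogenes MT1JP, MT1DP, MT1CP and MT1IP between them; MT1L is annotated as a transcribed pseudogene.

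The promoters of MT2A, MT1B, MT1H and MT1X are printed because these are the members with a sequence in the RefSeq promoter table (build GRCh38.p14). They also include the member whose mean signal was not lower (MT2A) beside 3 members whose signal was. Each runs from 250 bases before to 50 bases after the gene start, on the + strand of chromosome 16. The intervals are chr16:56608334-56608633 for MT2A, chr16:56651636-56651935 for MT1B, chr16:56669564-56669863 for MT1H and chr16:56682220-56682519 for MT1X. Capitals mark the core of the metal response element, searched as TGCGCNC and TGCACNC on both strands, so that a match on the other strand appears as its reverse complement. No promoter of MT1A, MT1E, MT1F, MT1G, MT1L or MT1M was used here.
MT2A: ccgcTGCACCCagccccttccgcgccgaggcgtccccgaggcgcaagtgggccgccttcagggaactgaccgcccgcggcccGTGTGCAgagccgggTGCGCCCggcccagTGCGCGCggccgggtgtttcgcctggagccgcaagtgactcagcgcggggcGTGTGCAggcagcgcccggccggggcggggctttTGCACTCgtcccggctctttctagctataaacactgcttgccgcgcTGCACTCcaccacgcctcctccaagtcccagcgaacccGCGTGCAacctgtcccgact
MT1B: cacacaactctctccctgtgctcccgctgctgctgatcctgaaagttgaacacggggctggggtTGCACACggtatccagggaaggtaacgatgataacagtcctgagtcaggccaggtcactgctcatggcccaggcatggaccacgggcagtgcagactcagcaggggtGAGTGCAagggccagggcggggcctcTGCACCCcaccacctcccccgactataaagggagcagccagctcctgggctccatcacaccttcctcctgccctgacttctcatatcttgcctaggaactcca
MT1H: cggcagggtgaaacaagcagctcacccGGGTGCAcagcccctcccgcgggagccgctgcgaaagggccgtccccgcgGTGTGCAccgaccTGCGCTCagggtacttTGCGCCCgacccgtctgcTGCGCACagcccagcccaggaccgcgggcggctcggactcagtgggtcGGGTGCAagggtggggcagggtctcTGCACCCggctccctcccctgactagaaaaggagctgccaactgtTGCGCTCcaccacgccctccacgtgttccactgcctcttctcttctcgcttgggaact
MT1X: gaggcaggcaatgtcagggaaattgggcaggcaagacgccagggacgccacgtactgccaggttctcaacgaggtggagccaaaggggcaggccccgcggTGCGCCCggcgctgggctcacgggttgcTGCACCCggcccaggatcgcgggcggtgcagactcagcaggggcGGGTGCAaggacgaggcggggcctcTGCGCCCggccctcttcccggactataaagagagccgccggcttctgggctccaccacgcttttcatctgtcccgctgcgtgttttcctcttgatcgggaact

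MT2A and MT1H each held 8 cores, 5 of them on the strand of the gene and 3 on the other. MT1X held 4 cores (3 and 1) and MT1B held 3 (2 and 1). Among all 35116 promoters of 300 bases in the table, 29.6% held at least 1 core, 2.3% at least 3, 0.601% at least 4 and 0.0199% at least 8. Counted from the leftmost base of the core as printed, a core on the gene strand lay 53 or 54 bases before the start in all 4 promoters, and a core on the other strand lay 78 or 79 bases before it in MT1B, MT1H and MT1X. The promoter of SLC30A1, which encodes a zinc exporter and is a known MTF1 target, held 2 cores, that of MT4 held 3, and that of MTF1 held 0. Any part of the cores in the signal differences was not tested, and most members had no promoter here. A match is a description of these letters and does not show that MTF1 binds there.

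Values below are the log2 of the background-corrected signal minus the 75th percentile of that array, and a difference is LOX-PP minus empty on this scale, relative to the median difference of all 32647 tested probes (0.13). A probe was tested if at least 3 of the 6 arrays detected it well above background. All 13 metallothionein probes were, and 9 of them were well above background on all 6 arrays. MT1M, MT1F and the second probe of MT1H reached this number mainly through the control arrays, so the filter favoured a lower LOX-PP signal and they are described with that limit. In bulk samples, fewer cells with a transcript and less transcript per cell cannot be told apart.

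MT2A, an isoform expressed in most tissues, was the member whose mean signal was not lower. Its log2 signal was 5.69, 5.80 and 5.76 on the 3 control arrays (5.75 ± 0.05, SD, n = 3), against 6.50, 5.60 and 6.01 on the LOX-PP arrays (6.04 ± 0.45, SD, n = 3). The groups overlapped, with the lowest value on LOX-PP replicate 2 and the highest on LOX-PP replicate 1, the array on the other slide. The relative difference was 0.16 ± 0.27 (SE), with a 95% interval from -0.49 to 0.81. Without that array it was -0.11, and it was also -0.11 under quantile normalization and -0.02 without a filter on dim probes, so that its sign is not settled. The MT2A spot was the brightest of the family. Before scaling, its median pixel signal was 47.1% to 54.6% of the saturation value on the control arrays and 30.0% to 41.8% on the LOX-PP arrays. The 75th percentile used for scaling was 7641, 6267 and 6204 on the control arrays, against 2847, 6252 and 3331 on the LOX-PP arrays.

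**Figure D1:**
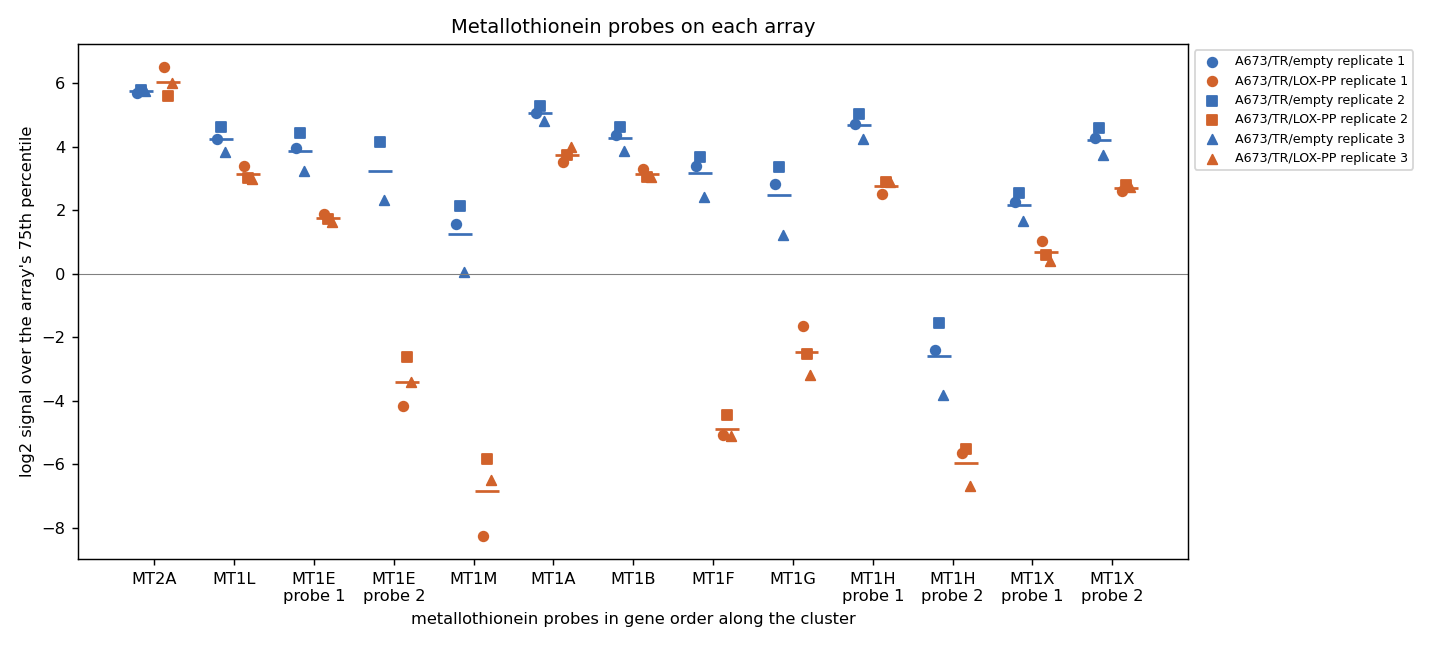
Log2 signal over the array's 75th percentile (y axis) of the 13 metallothionein probes in gene order (x axis), with 1 symbol for each array, control in blue and LOX-PP in orange, and a bar at each group mean. The LOX-PP symbols lie below all control symbols for 12 probes and overlap them for MT2A; the control spot of replicate 1 is missing for the second MT1E probe.

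The MT1 genes other than the pseudogene MT1L encode isoforms that share most of their coding sequence. All probes of the MT1 genes, MT1L included, had lower signal on the 3 LOX-PP arrays than on any control array. MT1M and MT1F, which were bright on the control arrays, were close to background on the LOX-PP arrays, so their differences are not ranked against those of other members. The log2 signal of MT1M was 1.58, 2.12 and 0.06 on the control arrays, against -8.25, -5.82 and -6.48 on the LOX-PP arrays. MT1M was well above background on all 3 control arrays and on 0 LOX-PP arrays, so its LOX-PP level is only a bound. Against the higher of its own signal and the lowest signal well above background on each LOX-PP array, the mean of MT1M was at least 165-fold lower (7.37 on the log2 scale, before the median of all probes was taken off). This bound depends on the floor: against the highest floor of any array it was at least 66.6-fold lower (6.06 on the log2 scale), and the relative difference was -6.19 with that common floor, set after the data were seen, and -5.86 with normexp, another background correction.

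MT1F gave 3.40, 3.68 and 2.41 on the control arrays (3.16 ± 0.67, SD, n = 3), against -5.07, -4.46 and -5.10 on the LOX-PP arrays (-4.88 ± 0.36, SD, n = 3). It was well above background on all control arrays and on 1 of 3 LOX-PP arrays. Its highest LOX-PP array lay 6.87 under its lowest control array, a gap set by signal close to background. The relative difference was -8.17 ± 0.38 (SE), or -6.95 with normexp. MT1G stayed measurable on every array, at 2.81, 3.36 and 1.24 on the control arrays, against -1.65, -2.53 and -3.19 on the LOX-PP arrays. Its relative difference was -5.05 ± 0.62 (SE), a 33.2-fold lower signal, with group means of 2.47 ± 1.10 and -2.46 ± 0.78 (SD, n = 3 each). The control arrays of MT1G spread more widely than those of most members, but the groups were still 2.88 apart at their nearest values.

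MT1E had a pair of probes that differed in the size of their change. The first (A_23_P206724) gave 3.95, 4.44 and 3.24 on the control arrays, against 1.89, 1.71 and 1.65 on the LOX-PP arrays, a relative difference of -2.25 ± 0.33 (SE), or 4.77-fold lower. The second (A_21_P0000671) gave 4.14 and 2.31 on control replicates 2 and 3 and -4.16, -2.62 and -3.41 on the LOX-PP arrays, a relative difference of -6.75 ± 0.67 (SE). The spot of this probe on control replicate 1 was a non-uniform outlier and was left out, so its fit rests on 2 control arrays. With the spot kept, its log2 signal there would be 3.25, within the range of the other control arrays. The first probe exceeded the second by 0.30 and 0.93 on the control arrays that measured both, and by 6.05, 4.33 and 5.05 on the LOX-PP arrays.

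The probes of MT1H differed less, and their gap rests on dim spots. Its first probe (A_33_P3315314) gave 4.71, 5.04 and 4.26 on the control arrays, against 2.51, 2.90 and 2.89 on the LOX-PP arrays, a relative difference of -2.03 ± 0.27 (SE), or 4.09-fold lower. Its second probe (A_33_P3368313) gave -2.38, -1.54 and -3.82 on the control arrays, against -5.63, -5.50 and -6.69 on the LOX-PP arrays, where it was well above background on 1 of 3. The relative difference of the second probe was -3.49 ± 0.61 (SE). With normexp it was -2.05, beside -2.11 for the first probe, and with a common floor -2.36, beside -2.04, so an unequal change of these probes is not settled. The first exceeded the second by 7.25 on average on the control arrays and by 8.71 on the LOX-PP arrays.

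The probes of MT1X moved together. A_33_P3236868 gave 2.27, 2.55 and 1.67 on the control arrays, against 1.03, 0.59 and 0.41 on the LOX-PP arrays. A_33_P3350056 gave 4.27, 4.60 and 3.75 on the control arrays, against 2.61, 2.80 and 2.72 on the LOX-PP arrays. Their relative differences were -1.61 ± 0.31 and -1.62 ± 0.27 (SE), or 3.06-fold and 3.08-fold lower, and the log2 ratio between them changed by 0.01 between the groups. Members of this family are nearly identical in sequence and the files hold no probe sequences, so which transcripts a probe binds cannot be told, and unequal change of a pair of probes cannot be assigned to a transcript.

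**Figure D2:**
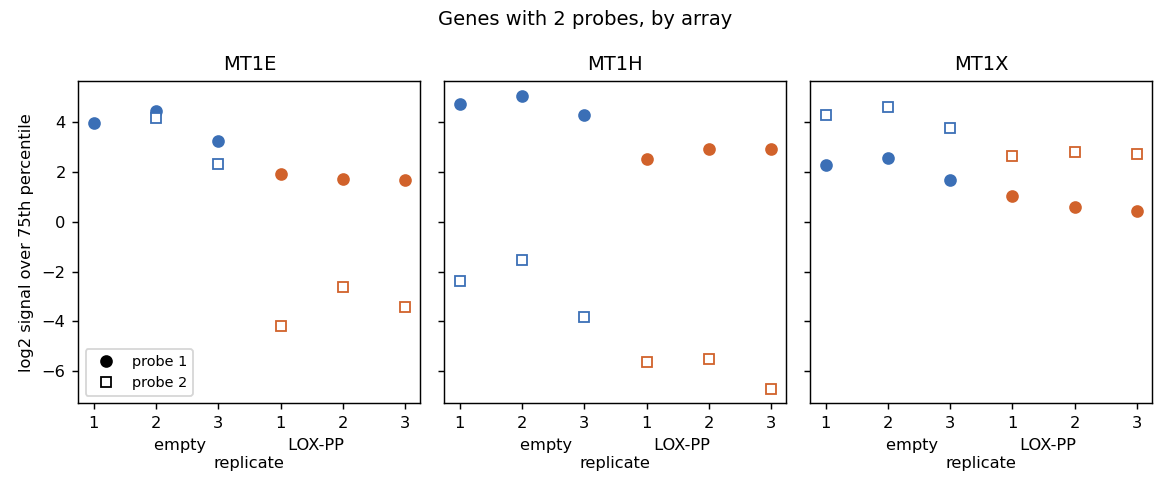
Log2 signal over the array's 75th percentile (y axis) by replicate (x axis) for the genes with 2 probes, first probe as filled circles and second as open squares, control in blue and LOX-PP in orange. The MT1E probes lie within 0.93 of each other on control arrays 2 and 3 and over 4 apart on the LOX-PP arrays, while the distance between the MT1X probes is alike in both groups.

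MT1A, MT1B and MT1L had the smallest differences among the MT1 genes. MT1A gave 5.05, 5.28 and 4.82 on the control arrays, against 3.51, 3.74 and 3.99 on the LOX-PP arrays, a relative difference of -1.43 ± 0.24 (SE), or 2.70-fold lower. MT1B gave 4.36, 4.61 and 3.86 on the control arrays, against 3.28, 3.05 and 3.05 on the LOX-PP arrays, a relative difference of -1.28 ± 0.26 (SE), or 2.42-fold lower. The transcribed pseudogene MT1L was close to MT1B in its change, with 4.25, 4.61 and 3.84 on the control arrays, against 3.39, 3.01 and 2.98 on the LOX-PP arrays, a relative difference of -1.23 ± 0.27 (SE), or 2.35-fold lower. In these 3 genes the lowest control array lay above the highest LOX-PP array by 0.83, 0.58 and 0.45, respectively.

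Over the family, 12 of 13 probes had groups that did not overlap, all with the lower signal on the LOX-PP arrays, where 13.4% of all tested probes did so in that direction and 29.5% in either. At a Benjamini-Hochberg adjusted p under 0.05 in limma, 10 of 13 were called lower, and 0 higher, beside 2.36% of all 32647 probes called lower, 3.31% called higher and 5.66% called in either direction. The probes of MT2A, MT1L and MT1B were not called. Since this contrast chose the family, these counts are given for completeness and nothing is read from them. The median relative difference of the 13 probes was -2.03, and the 10 probes well above background on all LOX-PP arrays ranged from -6.75 to 0.16. Within the slide that held both groups (the 3 control arrays and LOX-PP replicates 2 and 3), the median was -1.94 and all 12 MT1 probes were lower. In that fit 10 metallothionein probes were called lower. Of all 32647 tested probes, 2062 were called in either direction, a count not split by direction and so not a like measure. The size of the difference varied between probes, also between the probes of MT1E, so it is not read as a pattern along the cluster. Beyond -3 were 5 probes (MT1M, MT1F, MT1G, the second of MT1E and the second of MT1H), and 8 were above it. Of these 5, MT1M, MT1F and the second of MT1H were dim on the LOX-PP arrays. With a common floor or with normexp, 4 probes were beyond -3, without the second of MT1H. The number of metallothionein probes called was 4 without control replicate 1 or control replicate 2, and 5 without LOX-PP replicate 2 or 3. The calls in either direction over all 32647 tested probes also fell in these fits, from 1849 to 407, 444, 892 and 1037, respectively.

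The control arrays differed among themselves in a way the metallothionein probes shared. For the 12 probes measured on all 3 control arrays, replicate 2 was the highest in 12, and replicate 3 the lowest in 11; MT2A was the exception, with its lowest value on replicate 1. Over all tested probes, replicate 2 was the highest in 27.0% and replicate 3 the lowest in 29.3%. The median of the 12 probes was 4.10, 4.52 and 3.50 on control replicates 1, 2 and 3. Replicate 3 had the fewest gene spots well above background among the controls (56.9%) and the highest net signal of negative control spots (408), and replicate 2 had the lowest (133); the part of these differences in the order was not tested. The LOX-PP arrays had no such order, since the highest value fell on replicate 1 in 6 probes, on replicate 2 in 6 and on replicate 3 in 1.

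Of 10 further metallothionein loci that were not in the list of members, 4 had a probe. MT3, the brain isoform next to MT2A in the cluster, gave 1.84, 1.54 and 1.91 on the control arrays, against 2.32, 1.83 and 2.01 on the LOX-PP arrays. The groups overlapped, and the relative difference was 0.16 ± 0.23 (SE), with a 95% interval from -0.39 to 0.72 and an adjusted p of 0.524 by limma. Control replicate 2, the highest for most member probes, was the lowest for MT3, and control replicate 3 was the highest. Over all tested probes, replicate 2 was the lowest control array in 46.8% and replicate 3 the highest in 50.6%. The pseudogene MT1IP, which lies between MT1H and MT1X, had a relative difference of 0.01 ± 0.46 (SE, adjusted p = 0.893). MT4 and the pseudogene MT1DP were not well above background on any array and were not tested.

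The genes on either side of the cluster were compared next, with 10 taken on each side by RefSeq order. Of the 20 genes, 19 were tested (CETP was not) and 0 were called by limma, beside 7.07% of 16601 named genes taken by their brightest probe. At an unadjusted p under 0.05, 5 of the 19 passed, where 23.7% of named genes did, and 0 passed the adjusted test of the methods' t-test. The smallest adjusted p was 0.155. The median relative difference was -0.07, with a range from -0.79 (CPNE2) to 0.83 (CES5A), against -0.09 over all named genes. The nearest genes were BBS2, a subunit of the ciliary BBSome, on the MT4 side with -0.07 ± 0.33 (SE), and NUP93, a nuclear pore protein, on the MT1X side with -0.56 ± 0.35 (SE). The genes before MT4 had a median of 0.23 and those after MT1X a median of -0.38.

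**Figure D3:**
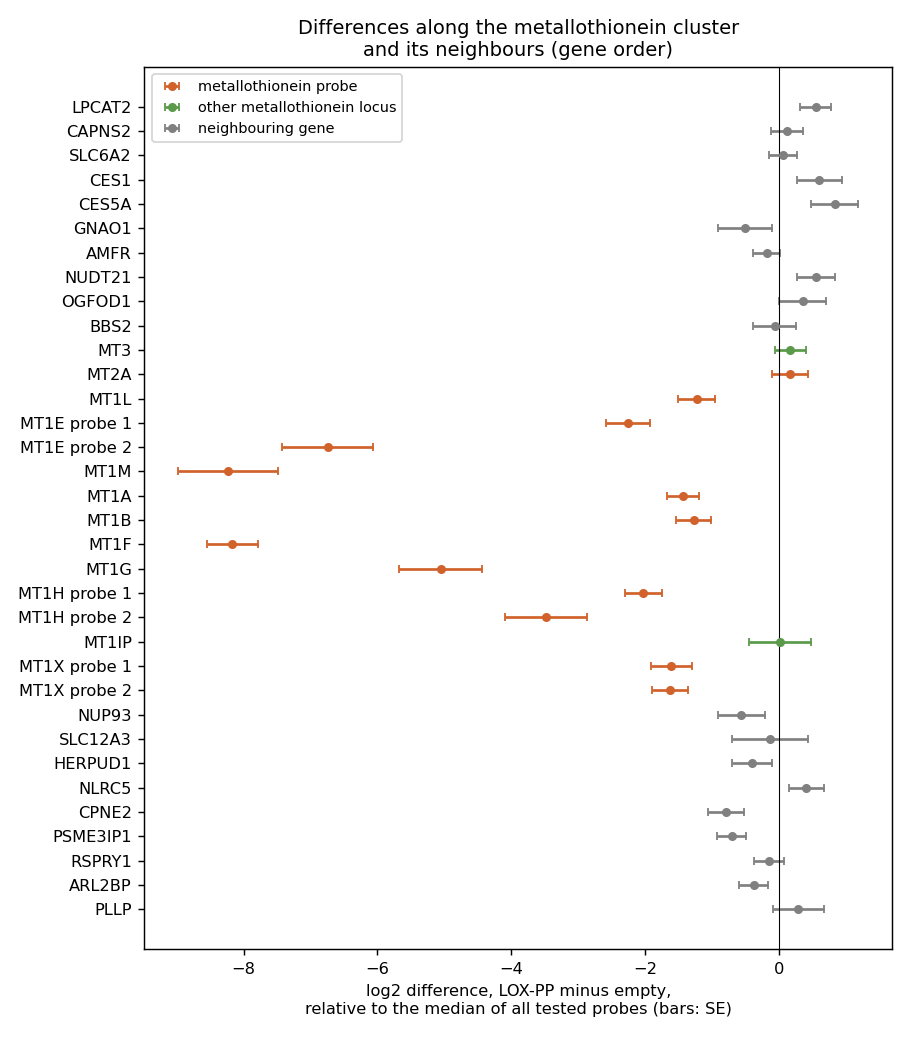
Relative log2 difference, LOX-PP minus empty (x axis), with its SE as a bar, for the genes in chromosome order (y axis), with member probes in orange, other metallothionein loci in green and neighbouring genes in grey. The MT1 probes lie at -1.23 or lower, MT1M with only a bound on the LOX-PP arrays, while MT2A, MT3, MT1IP and the neighbours lie between -0.79 and 0.83.

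MTF1, the zinc sensor that drives metallothionein transcription, did not pass the test. Its log2 signal was 0.44, 0.98 and -0.06 on the control arrays, against 0.10, -0.12 and -0.21 on the LOX-PP arrays, with groups that overlapped and a relative difference of -0.66 ± 0.31 (SE, adjusted p = 0.366). SLC30A1, the plasma membrane zinc exporter, gave 0.64, 0.92 and 0.26 on the control arrays, against -0.17, 0.28 and -0.58 on the LOX-PP arrays, again overlapping, with a relative difference of -0.89 ± 0.30 (SE, adjusted p = 0.211). On the control arrays, MTF1 and SLC30A1 had the same order as most members, highest on replicate 2 and lowest on replicate 3.

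Of 25 genes of zinc handling, 22 were tested, 0 were called lower and 1 was called higher, beside 3.37% and 3.7% of named genes. Their median relative difference was -0.34, and 17 of the 22 lay below the median of all probes, where 56.5% of named genes did. The called gene was SLC30A4, a zinc exporter of intracellular vesicles, at -5.55, -7.11 and -6.10 on the control arrays, against -2.48, -1.94 and -2.01 on the LOX-PP arrays. The groups were apart, and SLC30A4 rose by 3.98 ± 0.41 (SE, adjusted p = 0.00359), though it was well above background on 1 of 3 control arrays and the control level is poorly measured. The rise was 2.54 with a common floor and 2.11 with normexp, and the methods' t-test did not call it (adjusted p = 0.0537). The 8 tested SLC30A exporters had a median of -0.05, with 4 below the median of all probes. The 13 tested SLC39A zinc importers had a median of -0.51 and a range from -1.23 to 0.50, with 12 below the median of all probes, but 0 were called and their smallest adjusted p was 0.101.

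The lists of other inducers of metallothioneins gave few calls. Of 10 genes of copper handling (transporters and chaperones such as ATP7A and ATOX1) all were tested and 0 were called, with a median of -0.07. Of 15 genes of the antioxidant response (targets of NRF2 such as HMOX1 and NQO1), 14 were tested and 0 were called, with a median of 0.08. Of 10 genes of the heat shock response all were tested and 0 were called, with a median of -0.14. At an unadjusted p under 0.05, 2 genes of copper handling, 1 of the antioxidant response and 0 of the heat shock response passed, where 23.7% of named genes did, and the methods' t-test called 0 in each of these lists.

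Of 10 genes of the glucocorticoid response, 1 was called lower and 1 higher, beside 3.37% and 3.7% of named genes, with a median of 0.03. FKBP5, a co-chaperone of the glucocorticoid receptor, gave 0.55, 0.54 and 0.31 on the control arrays, against -1.11, -0.76 and -0.71 on the LOX-PP arrays, and fell by 1.45 ± 0.22 (SE, adjusted p = 0.020). DUSP1, a phosphatase of MAP kinases, gave -0.01, 0.23 and 0.01 on the control arrays, against 1.21, 1.82 and 1.39 on the LOX-PP arrays, and rose by 1.27 ± 0.24 (SE, adjusted p = 0.023). The groups of both genes were apart, in opposite directions. Their calls depended on the setting: FKBP5 lost its call under 5 alternatives and DUSP1 under 8, and without control replicate 1 the adjusted p was 0.135 and 0.142, respectively. Over the 5 lists, 66 of 70 genes were tested, 1 was called lower and 2 higher, beside 7.07% of named genes called in either direction, and the median was -0.12.

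**Figure D4:**
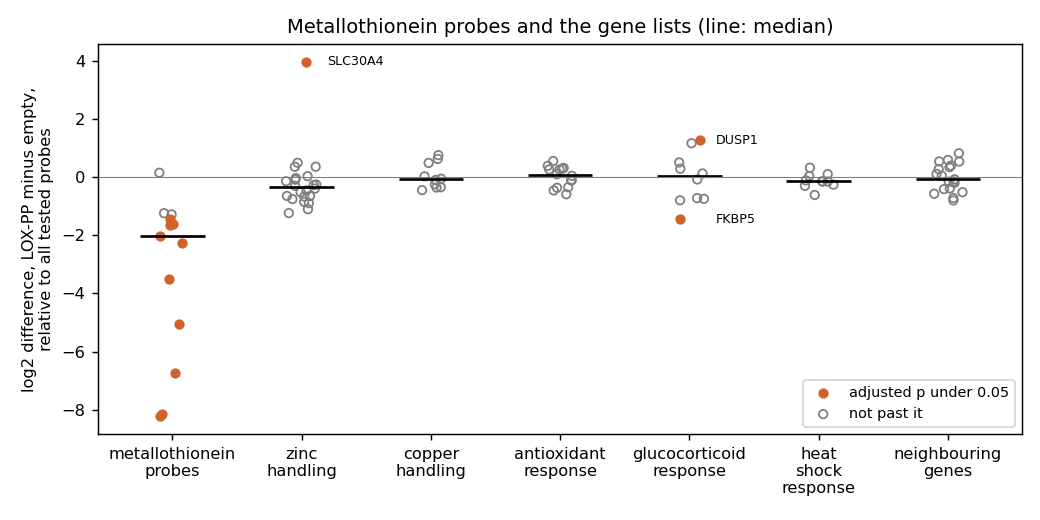
Relative log2 difference, LOX-PP minus empty (y axis), of each metallothionein probe and of each tested gene of 5 lists and the neighbouring genes (x axis), filled where the adjusted p of limma was under 0.05 and with a bar at the median. The metallothionein median is -2.03, while the medians of the lists lie between -0.34 and 0.08 with SLC30A4, DUSP1 and FKBP5 as the called genes.

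The mean pattern of the metallothionein probes over the 6 arrays, each probe first centred on its own mean, was compared with 22200 probes of named genes outside the family. The 5 genes with the highest Pearson r were TMEM200A, ITPRIPL2, KLF5, NR4A3 and AUNIP, all with r = 0.997 over 6 arrays. These points share their arrays and fall into the 2 groups, so r mainly restates the group difference and the order of the control arrays, and it is given as a description. KLF5, a zinc finger transcription factor, gave -0.95, -0.00 and -1.52 on the control arrays, against -4.11, -3.68 and -4.07 on the LOX-PP arrays, a relative difference of -3.25 ± 0.40 (SE). NR4A3, an orphan nuclear receptor, gave 2.03, 2.30 and 1.45 on the control arrays, against -0.46, -0.16 and -0.65 on the LOX-PP arrays, a relative difference of -2.48 ± 0.29 (SE). In both genes, as in 11 of 12 member probes, control replicate 2 was the highest and control replicate 3 the lowest of the control arrays. The relative differences of TMEM200A, ITPRIPL2 and AUNIP, which were chosen by the same r, were -2.27, -1.25 and -1.09.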

How the data were processed

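Per the labels, total RNA was hybridised in 1 colour, and the authors deposited, for each of the 6 arrays, the spot intensity written by Agilent Feature Extraction (version 10.7), already corrected for background. The authors also deposited processed log2 values, centred on each probe's median. Their column medians were -0.12, -0.34 and 0.15 for control and -0.23, 0.41 and 0.13 for LOX-PP. Of 50599 probes, 50537 agreed within 0.02 with the values computed here. The rest deviated by up to 2.47, and the cause was not examined. Here, outlier and control spots were dropped from the intensity, spots of the same probe were averaged on the log2 scale, and values were set against the array's own 75th percentile. The 32647 probes that at least 3 arrays detected well above background were tested with limma (version 3.58.1, R 4.3.3) with Benjamini-Hochberg adjustment at 0.05, without a block, and differences were set against the median of all probes. Steps were tested on simulated data. P-values measure the spread between 3 samples a group, and precision is limited by that number. Names came from a RefSeq table (GRCh38.p14) of another assembly than the array design, used for names and gene order; promoter coordinates are those of that table. A gene in a list was taken by its brightest tested probe.

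The members and lists were chosen with earlier results of these data known. Genes named are all members, the other metallothionein loci, list genes and neighbours past the threshold (at most 5 a list), MTF1, SLC30A1 and the 5 genes most alike in pattern. CPNE2, CES5A, BBS2 and NUP93 were named as the ends of the range or the nearest neighbours, after their values were seen. The same holds for the markers named and for LOX. The alternatives tried were normexp (offset 50, on the median spot signal, since no mean was given), quantile normalization, scaling to the median of detected probes, the authors' processed values, 2 filters on dim probes, the methods' t-test, a replicate block, a slide block and leaving out each array. A common floor under all arrays was added after the data were seen.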

Additional observations from a re-analysis of the deposited data

How the results depend on the processing

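The 1849 probes called in either direction over the whole array became 516 of 50599 without a filter on dim probes. They became 566 by the methods' t-test and 407 to 2062 with 1 array left out. The 10 metallothionein probes called lower became 4 without that filter, 1 by the methods' t-test and 4 to 10 with 1 array left out. The 3 called genes of the lists became 1 without the filter, 1 by the methods' t-test and 1 to 3 with 1 array left out. All fits with 1 array left out had fewer samples, and the count over the whole array rose to 2062 without LOX-PP replicate 1. The cause of these changes in the counts was not tested. The median of the metallothionein probes, -2.03, was -1.56 over the 9 probes well above background on all arrays, a set without the dimmest members, and -2.31 to -1.78 with 1 array left out. The 12 MT1 probes were lower under every alternative that gave a value, and 0 neighbouring genes were called under each. With normexp, the differences of dim probes came closer to 0, at -5.86 for MT1M, -6.95 for MT1F and -2.05 for the second MT1H probe.

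The replicate numbers were not used as pairs in the main fit. Same-numbered arrays deviated together with r = 0.27, -0.39 and 0.23, and arrays of unlike number with r from -0.46 to 0.39. With 3 arrays a group, these values cannot settle if the samples were paired. With the replicate block, 860 probes were called in either direction over the array, 7 metallothionein probes were called lower and 1 gene of the lists was called. The slide as a block equals leaving out LOX-PP replicate 1, the only array on its slide. Signal over background limits MT1M, MT1F, the second probe of MT1H and SLC30A4, each dim on most or all arrays of 1 group.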
